A study of Arabidopsis thaliana with 24 samples.

Results

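Leaves of sDH plants were compared with leaves of the doubled haploid line DH6 of Arabidopsis thaliana, the thale cress, by sequencing of messenger RNA. The 2 libraries labelled sDH were set against the 2 labelled DH6, which makes 4 of the 24 samples of the series and 4 of its 12 RNA libraries. DH6 is a line whose haploid chromosome set was doubled. The labels do not spell out sDH and do not say how its plants arose, and the count columns of both groups carry the tag 2n. Neither group has a treatment, transgene or genotype in the labels. The other 8 RNA libraries, 2 each of haploid 1n, diploid 2n and the doubled haploid lines DH9 and DH14, entered the same statistical model and place the levels of sDH and DH6. All 6 groups share age and growth: seedlings of 2 weeks, kept on soil and held at 22 °C, with days of 16 h and nights of 8 h after 2 days of cold at 4 °C, with RNA taken from leaves 6 to 8. Replicates are called biological, without a statement that they were separate plants or sowings, and the harvest hour is not given, so p-values measure how these libraries scatter, which may be technical. Samples of DNA methylation, 12 in all, were not analysed here.

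A haploid plant holds a single copy of each chromosome, and doubling that copy gives a plant that carries the same allele at every locus. Leaves that run short of light or sugar switch to an emergency programme, in which the kinase SnRK1 releases genes for the breakdown of proteins and amino acids, whose carbon skeletons then feed respiration. The circadian clock orders leaf gene expression through the day: the transcription factors CCA1 and LHY peak near dawn and repress evening genes such as TOC1, and many metabolic and defence genes follow this rhythm.

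The DH6 libraries, named II and III in the tables, held 22146896 and 20844886 counts in genes, and the sDH libraries II and III held 21034760 and 17434011. Correlation of log2 levels across genes was 0.993 between the sDH libraries, 0.99 between those of DH6 and 0.974 to 0.982 across the groups. Defining leaf genes were abundant in all 4 libraries, where the list of light-harvesting and photosystem genes summed to 145572 to 172370 CPM, the counts of a library scaled to a common total. Markers of root summed to 6.3 to 8.18 CPM in DH6 and 4.38 to 4.86 CPM in sDH, those of flower and pollen to 1.52 to 2.02 and 1.12 to 1.17 CPM, those of seed to 3.95 to 4.36 and 6.72 to 7.25 CPM, and those of the shoot meristem to 0.0449 to 0.237 and 0.176 to 0.513 CPM. Root markers EXPA7, MYB36 and PLT1, flower markers AP1, AP3 and SEP2, 5 seed markers including CRU3, and KNAT1, CUC1 and CUC2 had no count in the 4 libraries. No marker passed in edgeR, but most were too low to be tested. Tested were 5 of 15 root, 4 of 10 flower and pollen, 2 of 11 seed and 0 of 8 shoot meristem markers. DESeq2 called 1 root marker. In these whole-leaf extracts, fewer cells of a type and less RNA per cell cannot be told apart.

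Library sDH III stood apart from all others. By a rule chosen after the values were seen, 12 genes and 4 transposable elements (TEs) had at least 20 counts in sDH III and at most 2 in each other library, against none in sDH II and either DH6 library, and against 3 genes and 1 TE in 1n replicate 2. AT4G19240 had 214 counts, AOP3, a gene of the glucosinolate AOP locus, 140, and AT5TE25460 348. None of these 16 features was tested, because too few libraries held them. Library sDH III may come from a plant of another accession or from mixed material. Whether sDH II and sDH III came from plants of the same genotype was not tested. It bears on every sDH mean and every call of sDH against DH6, so counts without sDH III stand beside the results. Both DH6 libraries in turn held low counts at many features silent in the 8 libraries of 1n, 2n, DH9 and DH14. Of 4294 such genes, DH6 II showed counts at 522 and DH6 III at 933, against 234 in sDH II and 132 in sDH III. At equal depth these shares were 9.87 and 18.5% in DH6 and 4.68 and 2.96% in sDH.

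Leaves of sDH had far more RNA of starvation genes and dawn clock genes than leaves of DH6. They had less of genes for iron uptake signals, glucosinolates and salicylic acid defence. Most calls in the glucosinolate and salicylic acid lists were lost when some single library was left out, as given below. Such a fit leaves a lone library in its group and can detect less, so calls can fall whichever library is left out. Of 19201 tested genes 1408, or 7.33%, passed edgeR's quasi-likelihood test at an adjusted p under 0.05. Higher in sDH were 855 genes (4.45%) and lower 553 (2.88%), while the median log2 change over all tested genes was -0.01. Each library carried much of this count: 363 genes passed without DH6 II, 433 without DH6 III, 666 without sDH II and 392 without sDH III, and 236 calls held in all 4 of these fits, 188 of them higher and 48 lower in sDH.

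**Figure D1:**
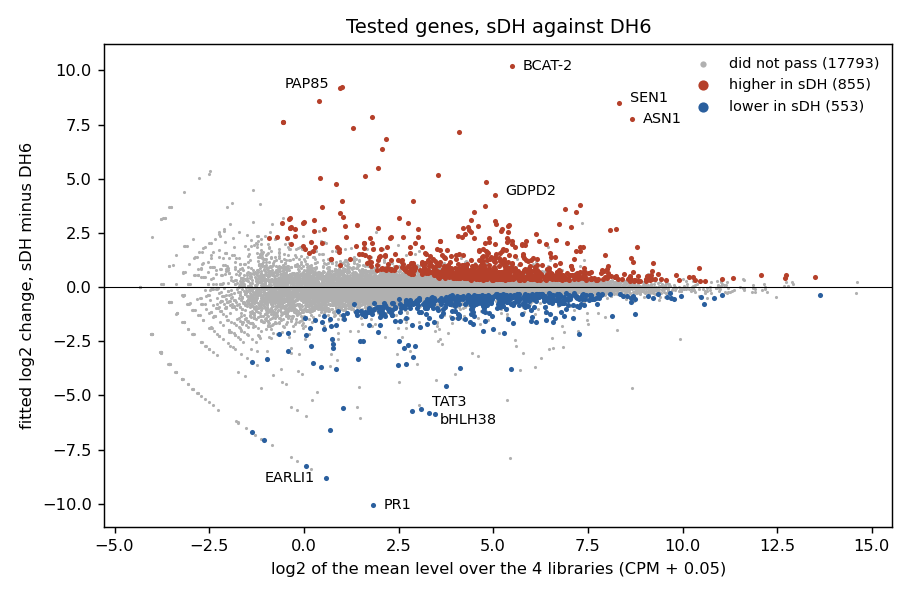
Fitted log2 change (sDH minus DH6) against the log2 mean level of the 4 libraries for 19201 tested genes. Of the genes that passed, 855 in red lie above and 553 in blue below zero; BCAT-2, SEN1 and ASN1 join large changes to high levels, and PR1 and EARLI1 have the lowest changes among the named genes.

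Genes of darkness and sugar starvation were higher in sDH with few exceptions. Of 19 tested members 16 passed as higher in sDH and none lower, against 4.45% and 2.88% of all tested genes. Their median log2 change was 1.99. Both sDH libraries lay above all 10 other libraries for 12 of the 16, and both DH6 libraries lay below all others for 8. Over all higher calls these shares were 49.9% and 31.1%. The count was 11 without DH6 II, 13 without DH6 III, 13 without sDH II and 12 without sDH III. The list was written with earlier results of these data known.

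SEN1, a gene induced by darkness and ageing, stood at 1.8 and 1.71 CPM in the DH6 libraries and at 523 and 748 CPM in those of sDH. ASN1 (DIN6), the asparagine synthetase that stores nitrogen in a carbon-sparing form, read 5.39 and 2.18 CPM in DH6 and 809 and 822 CPM in sDH. Both genes were far higher in each sDH library than in either DH6 library. The log2 change of SEN1 was 8.50 (SE 0.428, edgeR adjusted p = 1.86e-06) and that of ASN1 7.74 (SE 0.387, edgeR adjusted p = 1.86e-06). In the other 8 libraries SEN1 ranged from 1.97 to 22.8 CPM and ASN1 from 2.91 to 52.9 CPM, so sDH lay above every group, while DH6 lay close to 2n.

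BCAT-2, an aminotransferase that starts the breakdown of branched-chain amino acids, had 2 and 1 counts in DH6 and 1570 and 1803 in sDH. The count ratio was 1265 (95% interval of read sampling 433 to 6138, edgeR adjusted p = 2.11e-07). Its levels of 73.2 and 105 CPM in sDH compare with 0.42 to 0.909 CPM in the 8 libraries of the other groups, so both sDH and DH6 stood outside their range, on opposite sides. AKINBETA1, a regulatory subunit of SnRK1, read 23.3 and 24.4 CPM in DH6 and 82.6 and 99.5 CPM in sDH (log2 change 1.93 with SE 0.145, edgeR adjusted p = 3.19e-05). STP1, a hexose importer, was at 70.7 and 71.2 CPM in DH6 and at 243 and 276 CPM in sDH (log2 change 1.87 with SE 0.221, edgeR adjusted p = 0.000799). Both genes were lower in each DH6 library and higher in each sDH library, and their DH6 replicates nearly coincided. DIN10, a raffinose synthase family gene, was higher with a log2 change of 2.69 (edgeR adjusted p = 0.00039), and the trehalose-phosphate synthase family genes TPS9, TPS10 and TPS11 by 1.16 to 1.31, although all 3 lost their call in each fit without 1 of the 4 libraries (edgeR adjusted p up to 0.216). Not passing were DIN2, DIN9 and TPS8, with log2 changes of 4.49, 0.16 and 0.99.

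The enzymes that take amino acids apart were read as a wider list of 32 genes, put together after BCAT-2 and its neighbours in the pathway had been seen, so that its count is a description. Of 31 tested members 20 were higher in sDH and none lower, against 4.45% and 2.88% of all tested genes. Their median log2 change was 1.46. Over all higher calls, 49.9% had both sDH libraries above all 10 others. For 18 of the 20 both sDH libraries exceeded all 10 others, and fits without 1 library called 17 to 19 members. MCCA, the biotin-bearing subunit of methylcrotonyl-CoA carboxylase, stood at 20.8 and 21.3 CPM in DH6 and at 260 and 324 CPM in sDH (log2 change 3.79 with SE 0.17, edgeR adjusted p = 1.06e-06). Its partner subunit MCCB changed by 0.78 (edgeR adjusted p = 0.0133, but 0.119 without DH6 II and 0.0972 without sDH III). IVD, isovaleryl-CoA dehydrogenase, read 14.4 and 12.2 CPM in DH6 and 51.3 and 54.7 CPM in sDH (log2 change 1.99, edgeR adjusted p = 4.52e-06). The 2 subunits of one enzyme thus differed by unequal amounts, the larger change in MCCA. Among subunits of the branched-chain keto acid dehydrogenase, BCE2 was higher by 2.13 on the log2 scale, AT1G21400 by 2.57 and DIN4 by 1.99, while AT5G09300 had a log2 change of -0.06. ETFQO, which passes electrons from these dehydrogenases to the respiratory chain, was higher by 1.58 (edgeR adjusted p = 0.000189), while its partners ETFBETA and ETFALPHA had log2 changes of 0.27 and 0.19 and did not pass.

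Tyrosine breakdown showed the same direction in its first steps. HGO, homogentisate dioxygenase, stood at 6.02 and 5.93 CPM in DH6 and at 40.8 and 44.8 CPM in sDH (log2 change 2.84 with SE 0.173, edgeR adjusted p = 6.04e-06). The tyrosine aminotransferase TAT7 and the hydroxyphenylpyruvate dioxygenase PDS1 were higher by 1.70 and 1.97, whereas GSTZ1 and AT1G12050, which act after HGO, had log2 changes of -0.15 and -0.17 and did not pass. ERD5, the proline dehydrogenase, read 22.7 and 26 CPM in DH6 and 287 and 243 CPM in sDH (log2 change 3.45 with SE 0.542, edgeR adjusted p = 0.00448, or 0.0582 without DH6 II). ALDH12A1, which completes proline breakdown, was level at 60.2 and 55.6 against 59.6 and 55.8 CPM (log2 change -0.00 with SE 0.0847, edgeR adjusted p = 0.979). The glutamate dehydrogenases GDH1 and GDH2 were higher by 1.46 and 2.08. THA1, a threonine aldolase, had 3 counts in DH6 and 329 in sDH, 123 times as many at equal depth (95% interval 41.9 to 601), while its paralog THA2 changed by -0.18 and did not pass. THA1 entered the test only through its counts in sDH, so its call gives no support to the count of the list. In each of these pathways, then, some enzymes differed many-fold and others did not pass.

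**Figure D2:**
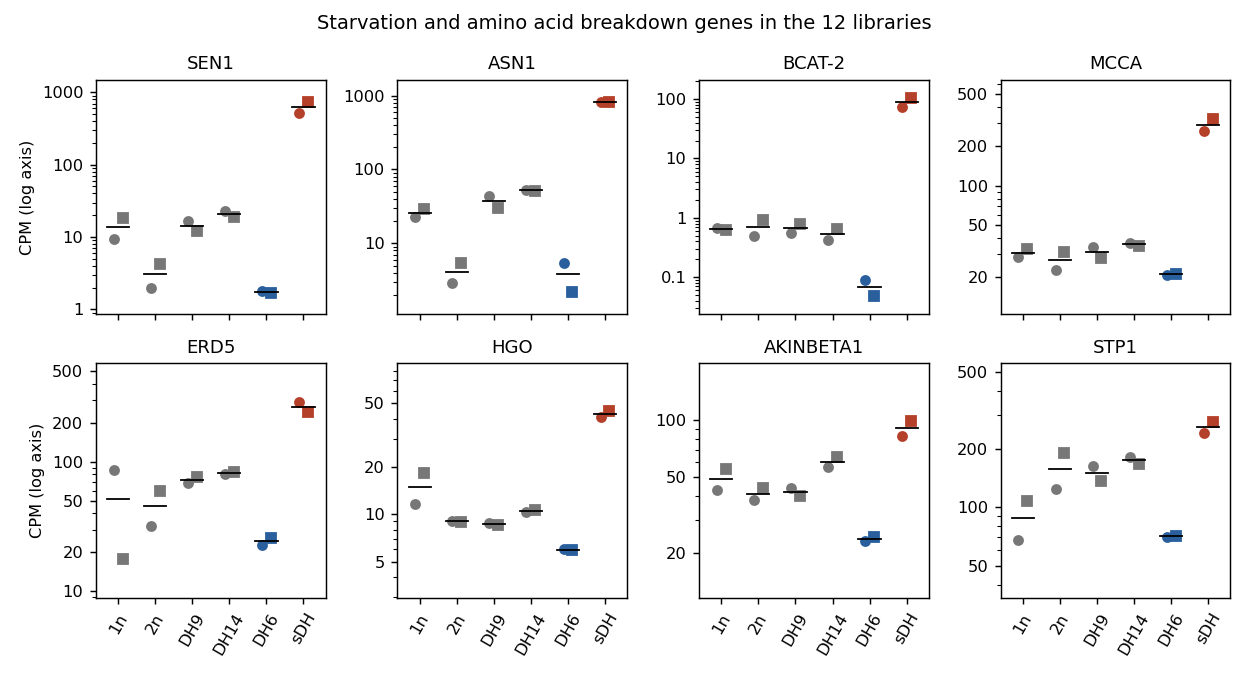
Levels (CPM, log axis) of 8 starvation and amino acid breakdown genes in each of the 12 libraries, with circles for replicate 1 or II, squares for replicate 2 or III and bars for group means (n = 2). Both sDH libraries lie above the other 10 in all 8 panels, for SEN1 at 523 and 748 CPM against 22.8 CPM at most elsewhere.

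By the rule for the 12 largest increases among genes with a symbol, further genes were UMAMIT33, NAP, MIOX2, GDPD2, PHI-1, PAP85, GLYI4 and AGL38. GDPD2, a glycerophosphodiester phosphodiesterase, read 3.01 and 3.56 CPM in DH6 and 59.5 and 65.3 CPM in sDH (log2 change 4.25 with SE 0.24, edgeR adjusted p = 4.36e-06). NAP, a transcription factor that drives leaf senescence, stood at 0.135 and 0.19 CPM in DH6 and at 5.83 and 5.79 CPM in sDH (log2 change 5.11 with SE 0.561, edgeR adjusted p = 0.000516). Other groups held NAP at 0.642 to 7.15 CPM, so that it was DH6 that lay below all others. NAP was the only one of 11 tested senescence genes to pass, where 7.33% of all tested genes passed. MIOX2, a myo-inositol oxygenase, was higher by 4.87 (edgeR adjusted p = 0.00512, or 0.0609 without DH6 III). UMAMIT33, of an amino acid transporter family, read 0.0898 and 0.0948 CPM in DH6 and 9.09 and 7.37 CPM in sDH, and PHI-1, of the EXORDIUM family, was higher by 3.96 (edgeR adjusted p = 0.00237). Among the 12 genes, BCAT-2, SEN1, ASN1, GDPD2, NAP and PHI-1 kept their call without each library. UMAMIT33, THA1, PAP85, GLYI4 and AGL38 entered the test only through their counts in sDH, as did 13 of the 855 higher genes in all, so that no p is given for them.

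Some genes had counts in a single group of the pair. With at least 10 counts in both libraries and none in the other group, 6 of all 27416 genes (0.0219%) were found in sDH alone of the pair and 4 (0.0146%) in DH6 alone. PAP85, a vicilin-like seed storage protein gene, had 54 and 87 counts in sDH and none in DH6, at least a 55-fold difference against a floor of 3 counts over the group. The glyoxalase family gene GLYI4 had 32 and 61 counts, at least 36.6-fold. AGL38 (PHERES2), a MADS-box gene known from the endosperm, had 29 and 20 counts, and none in DH6. In 1n, 2n, DH9 and DH14, PAP85 and GLYI4 had at most 1 count a library, but AGL38 had up to 16 in DH14 and 8 in DH9. The 3 others with counts in sDH were AT1G15770, AT1G19530 and AT2G14160, with 110 and 46, 29 and 20, and 10 and 14 counts. AT1G15770 also had 33 counts in 2n replicate 2. With counts in DH6 alone of the pair were PR1, EARLI1, its neighbour in number AT4G12490, and AT3G49340.

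Clock genes of the morning were higher in sDH and those of the evening lower. Of 10 morning genes 8 were higher and none lower, against 4.45% and 2.88% of all tested genes. Their median log2 change was 1.58. Both sDH libraries lay above both DH6 libraries in all 10, an order found in 28.8% of tested genes. Without DH6 II, DH6 III, sDH II or sDH III the count was 6, 4, 5 or 7. LCL1, a relative of CCA1, stood at 32.1 and 30.5 CPM in DH6 and at 81.2 and 79.4 CPM in sDH (log2 change 1.36 with SE 0.0891, edgeR adjusted p = 1.09e-05). RVE1, which links the clock to auxin and is most active at dawn, read 3.68 and 3.93 CPM in DH6 and 54 and 28.8 CPM in sDH (log2 change 3.44 with SE 0.371, edgeR adjusted p = 0.000461). LCL1 and RVE1 kept their calls without each library, as did AT3G54500 (LNK2) and AT3G12320 (LNK3), members of a family of clock coactivators, which were higher by 1.48 and 1.68. CCA1 read 18.1 and 15.4 CPM in DH6 and 88.4 and 57.6 CPM in sDH (log2 change 2.13 with SE 0.344, edgeR adjusted p = 0.00518, or 0.0569 without DH6 III). LHY read 5.89 and 3.65 against 39.1 and 24.3 CPM (log2 change 2.73 with SE 0.575, edgeR adjusted p = 0.0176, but 0.0849, 0.13 and 0.0923 without DH6 II, DH6 III and sDH II). Neither group was extreme for CCA1 and LHY, since 2n lay below DH6 at 1.03 and 1.02 CPM of CCA1 and 1n reached 178 CPM.

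Of 12 evening genes 6 were lower in sDH and none higher, with a median log2 change of -0.61, against 2.88% lower calls among all genes. TOC1, a repressor of CCA1, stood at 69.7 and 77.1 CPM in DH6 and at 40.4 and 43.6 CPM in sDH (log2 change -0.81 with SE 0.177, edgeR adjusted p = 0.0213). PCL1 (LUX), a subunit of the evening complex, read 33.2 and 36.2 against 16.4 and 21.5 CPM (log2 change -0.88 with SE 0.156, edgeR adjusted p = 0.00855). FKF1, a blue-light receptor of the flowering pathway, read 52.8 and 56.2 against 25.6 and 28.1 CPM (log2 change -1.02 with SE 0.197, edgeR adjusted p = 0.0122). The DH6 libraries were above those of sDH for these genes, but the calls hung on each library: without DH6 II, DH6 III, sDH II or sDH III, 1, 0, 0 and 1 evening genes passed, PCL1 among them in both cases, and the adjusted p of TOC1 was 0.0803 to 0.128. ELF4, also of the evening complex, stood at 29.1 and 25.4 against 13.6 and 16.8 CPM and did not pass (edgeR adjusted p = 0.125).

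**Figure D3:**
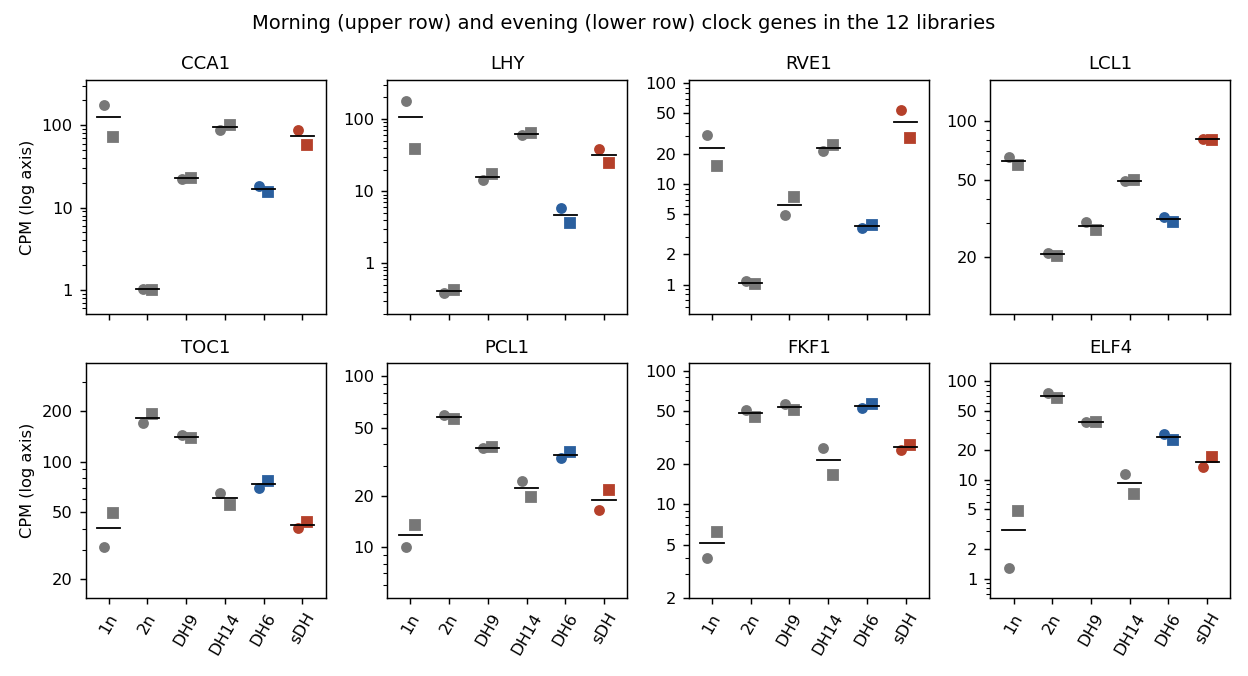
Levels (CPM, log axis) of 4 morning and 4 evening clock genes in the 12 libraries, with circles for replicate 1 or II, squares for replicate 2 or III and bars for group means (n = 2). The sDH libraries lie above those of DH6 in the upper row and below them in the lower row, and for CCA1 both lie between 2n at 1.03 and 1.02 CPM and 1n at up to 178 CPM.

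Light-responsive genes differed by smaller amounts. Of 36 light-harvesting and photosystem genes 5 were higher in sDH and none lower, against 4.45% and 2.88% of all tested genes. Their median log2 change was 0.01. LHCB2.3, an antenna protein of photosystem II, stood at 1020.2 and 940.4 CPM in DH6 and at 1707 and 1867 CPM in sDH (log2 change 0.87 with SE 0.103, edgeR adjusted p = 0.000819), although reads shared with its near-identical paralogs may have been split among them. CAB2, LHB1B1, LHCB5 and LHCA4 were higher by 0.42 to 0.57, and 3 of the 5 genes passed without sDH III, 2 without DH6 II. In the Calvin cycle list of 17 genes GAPA was higher by 0.36 and RBCS3B and the transketolase AT3G60750 had log2 changes of -0.37 and -0.35, and these 3 failed without DH6 II (0.0614, 0.133 and 0.0803). The B-box transcription factor BBX28 read 21.6 and 22.4 CPM in DH6 and 51.3 and 49.3 CPM in sDH (log2 change 1.19 with SE 0.105, edgeR adjusted p = 0.000112). Of 16 tested B-box genes BBX27, BBX16 and BBX28 were higher and BBX8 lower, of which BBX27 and BBX16 failed without DH6 III (0.175 and 0.229). Among 11 listed B-box genes of light signalling COL1 was higher and COL9 lower, both failing without at least 1 library (up to 0.242). Morning clock genes moved with these light-responsive genes as given above, and their part in the result was not tested.

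Genes of touch and rapid stress were higher in sDH, in 11 of 27 tested members with none lower, against 4.45% and 2.88% of all tested genes. Their median log2 change was 1.09. For 8 of the 11 both DH6 libraries lay below all 10 others, and for none did sDH lie above all others. Over all higher calls these shares were 31.1% and 49.9%. TCH4, a cell wall enzyme induced by touch, stood at 28.5 and 21.8 CPM in DH6 and at 130 and 249 CPM in sDH (log2 change 2.91 with SE 0.454, edgeR adjusted p = 0.00424, or 0.0535 without DH6 III). ERF104, an ethylene response factor, read 12.7 and 15.6 CPM in DH6 and 49.2 and 86 CPM in sDH (log2 change 2.25 with SE 0.301, edgeR adjusted p = 0.00173). TCH3, a calmodulin-like gene, read 46.4 and 55 against 105 and 162 CPM (log2 change 1.40 with SE 0.236, edgeR adjusted p = 0.00648, but 0.0715 without DH6 II and 0.0562 without sDH III). For these genes the groups did not overlap, and sDH III was the highest of the 4 libraries. In 2n, ERF104 reached 279 and 256 CPM, above sDH. The list held 3 calls without DH6 II, DH6 III or sDH III and 10 without sDH II.

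Iron deficiency signals were lower in sDH. Of 13 tested genes of iron homeostasis 7 were lower and none higher, against 2.88% and 4.45% of all tested genes. Their median log2 change was -1.33. Leaves short of iron induce the transcription factors bHLH38, bHLH39, BHLH100 and BHLH101, which drive iron uptake. BHLH100 stood at 9.39 and 33.4 CPM in DH6 and at 0.187 and 0.585 CPM in sDH (log2 change -5.84 with SE 0.764, edgeR adjusted p = 0.00152). The neighbouring genes bHLH38 and bHLH39 changed alike, bHLH38 from 9.21 and 29.3 to 0.0933 and 0.644 CPM (log2 change -5.79 with SE 0.888, edgeR adjusted p = 0.00387) and bHLH39 from 8.45 and 19.7 to 0.0933 and 0.468 CPM (log2 change -5.71 with SE 0.737, edgeR adjusted p = 0.00143). For these 3 genes DH6 lay above all other libraries and sDH below all others, and their calls held without each library, although DH6 III read more than DH6 II and sDH III more than sDH II each time. BTS, a ubiquitin ligase that restrains the response, was lower too, at 144 and 178 CPM in DH6 and 73.7 and 84.6 CPM in sDH (log2 change -1.03 with SE 0.164, edgeR adjusted p = 0.00486). PYE, a repressor in the same network, FRO3, a mitochondrial iron reductase, and BHLH101 were lower, with log2 changes of -1.41, -1.33 and -2.49, and each failed in at least 3 of the 4 fits without 1 library (up to 0.216). The ferritin gene FER1, which stores iron, was at 66.8 and 41.2 CPM in DH6 and at 151 and 104 CPM in sDH and did not pass (edgeR adjusted p = 0.0658). Without DH6 II, DH6 III, sDH II or sDH III, 5, 4, 4 and 6 members passed as lower.

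Salicylic acid, the hormone of defence against pathogens that feed on living cells, had 8 lower and no higher genes among 29 tested. Their median log2 change was -0.47. Over all tested genes 2.88% were lower and 4.45% higher. In all 8 both sDH libraries were below the 10 others, against 54.1% of all lower calls. WRKY54, a regulator of this pathway, stood at 24.4 and 35.4 CPM in DH6 and at 11.9 and 13 CPM in sDH (log2 change -1.26 with SE 0.151, edgeR adjusted p = 0.000864) and kept its call without each library. PAD4, needed for salicylic acid accumulation, read 9.88 and 13.5 against 5.64 and 4.68 CPM (log2 change -1.17 with SE 0.198, edgeR adjusted p = 0.00692, or 0.0573 without DH6 III and 0.0697 without sDH III). BGL2 (PR2), a glucanase of the defence output, read 7.37 and 16.5 against 1.45 and 0.527 CPM (log2 change -3.53 with SE 0.675, edgeR adjusted p = 0.0118, or 0.0759 and 0.0976 without the same libraries). PR1, the usual marker of this defence, had 28 and 266 counts in DH6 and none in sDH, a difference of at least 89.1-fold (edgeR adjusted p = 0.0375), but the call failed without DH6 III (0.169), sDH II (0.155) or sDH III (0.149). The DH6 libraries were far apart for PR1, at 1.26 and 12.6 CPM, and both lay below the 77.6 to 465 CPM of 1n and 2n. PR1 was low in the other doubled haploid lines too, at 0.439 and 0.296 CPM in DH9 and 1.16 and 1.47 CPM in DH14. EDS16 (ICS1), the main synthase, stood at 14.3 and 14.2 against 16.1 and 14.7 CPM and did not pass (log2 change 0.12 with SE 0.135, edgeR adjusted p = 0.643). Without DH6 II, DH6 III, sDH II or sDH III, 5, 2, 4 and 1 list members were lower.

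Cysteine-rich receptor-like kinases, many of which respond to salicylic acid and pathogens, had 6 lower genes and 1 higher among 35 tested, with a median log2 change of -0.60. CRK19 stood at 33.4 and 37.5 CPM in DH6 and at 17.9 and 18.3 CPM in sDH (log2 change -0.97 with SE 0.18, edgeR adjusted p = 0.00994). CRK7 had 5 and 32 counts in DH6 and none in sDH, at least 11.2-fold (edgeR adjusted p = 0.0496, or 0.215 without DH6 III). CRK3 was the higher one, by 0.58. Over all lower calls, 54.1% had sDH below all other libraries. For the 6 lower genes sDH lay below all other libraries, but 4, 1, 1 and 0 of them passed without DH6 II, DH6 III, sDH II or sDH III. Over all tested genes 7.33% were called, 4.45% higher and 2.88% lower, the shares to set beside the next 2 counts. Of 47 tested WRKY genes 3 were lower, WRKY17, WRKY38 and WRKY54. Of 23 intracellular immune receptors of the NLR class ADR1-L2 was higher and RPP13 lower, and WRKY17, WRKY38 and these 2 failed without sDH III (0.0844, 0.136, 0.175 and 0.205).

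Glucosinolates are the mustard oil precursors of the cabbage family, made from methionine (aliphatic) or tryptophan (indolic). Of 16 aliphatic genes 11 were lower in sDH and none higher, against 2.88% and 4.45% of all tested genes. Their median log2 change was -1.40. SUR1, the lyase shared by both branches, stood at 101 and 73.4 CPM in DH6 and at 43.5 and 39.8 CPM in sDH (log2 change -1.06 with SE 0.196, edgeR adjusted p = 0.00998). CYP83A1, an early enzyme of the aliphatic branch, read 144 and 112 against 57.1 and 50.6 CPM (log2 change -1.25 with SE 0.248, edgeR adjusted p = 0.0139). MYB28, the main regulator of the branch, changed least among the 11, at 53.3 and 50.6 against 36.9 and 37.2 CPM (log2 change -0.49 with SE 0.127, edgeR adjusted p = 0.042). Groups did not overlap for these genes, but no aliphatic gene passed without DH6 II and none without sDH III, while 5 passed without DH6 III and 3 without sDH II. CYP83A1 had an adjusted p of 0.108 without DH6 II and 0.11 without sDH III, and MYB28 failed in all 4 fits (0.128 to 0.196). Both sDH libraries were below all others for 4 of the 11, against 54.1% of all lower calls. In CYP83A1, 2n lay between sDH and DH6, at 71.7 and 73.5 CPM.

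Of 16 tested indolic and camalexin genes 6 were lower, against 2.88% of all tested genes. Their median log2 change was -0.99. CYP83B1, which commits tryptophan-derived oximes to glucosinolates, read 204 and 127 CPM in DH6 and 73 and 59.9 CPM in sDH (log2 change -1.32 with SE 0.24, edgeR adjusted p = 0.00927, or 0.0791 without DH6 II and 0.0926 without sDH III). CYP71A13, an enzyme of camalexin synthesis, stood at 13.6 and 12.3 against 3.45 and 3.8 CPM (log2 change -1.84 with SE 0.304, edgeR adjusted p = 0.00585) and kept its call without each library. Without DH6 II, DH6 III, sDH II or sDH III, 2, 6, 2 and 1 genes were lower. Morning clock genes, and jasmonate genes in DH6 II, moved beside these lists, and their part in the result was not tested.

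Jasmonate genes differed between the DH6 libraries, and also between those of 1n and DH14. Their list summed to 4749 and 1047 CPM in DH6 II and III, 1052 and 3872 CPM in 1n, and 1534 and 3465 CPM in DH14. Replicates lay closer in 2n (1287 and 1877 CPM), DH9 (1614 and 1168 CPM) and sDH (759 and 716 CPM). Jasmonate, a wound hormone, induces VSP1, a storage protein gene, which stood at 167 CPM in DH6 II, 4.79 CPM in DH6 III, and 0.42 and 0.293 CPM in sDH. LOX2, an early enzyme of jasmonate synthesis, read 2749 and 522 CPM in DH6 and 354 and 274 CPM in sDH. For both genes DH6 II was highest by far of the 4, and neither passed (edgeR adjusted p = 0.107 and 0.0684). Over all tested genes 2.88% were called lower, the share to set beside the next count. In the list of 28 genes the median log2 change was -0.96, and 1 gene passed, the tyrosine aminotransferase gene TAT3, which was lower, at 31.5 and 1.94 against 0.513 and 0.117 CPM (log2 change -5.62 with SE 1.35, edgeR adjusted p = 0.03, or 0.271, 0.14 and 0.175 without DH6 II, sDH II and sDH III). Without DH6 III, 3 genes were lower.

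The remaining largest decreases by the naming rule lost their calls in at least 1 fit without a library. EARLI1, a lipid-transfer-like gene, had 106 and 21 counts in DH6 and none in sDH, at least 37-fold (edgeR adjusted p = 0.0376, or 0.188, 0.164 and 0.159 without DH6 II, sDH II and sDH III). RNS1, a ribonuclease induced by wounding and phosphate shortage, had 126 and 12 counts in DH6 and 1 in sDH, a ratio of 123 (95% interval 21.7 to 4879, edgeR adjusted p = 0.04, or 0.296, 0.214 and 0.167 without the same libraries). The chitinase gene CHI had 172 counts in DH6 and 3 in sDH, a ratio of 51 (95% interval 17.1 to 249.5, edgeR adjusted p = 0.0418). CHI, though even in DH6 with 93 and 79 counts, lost its call in each fit without 1 library (0.114 to 0.196). TPS03, a terpene synthase, EXT3, an extensin, and MSRB9, a methionine sulfoxide reductase, had log2 changes of -3.61, -3.33 and -2.80, and all 3 failed without DH6 II (0.196, 0.118 and 0.133). Of the 12 largest decreases only BHLH100, bHLH38 and bHLH39 kept their call without each library.

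**Figure D4:**
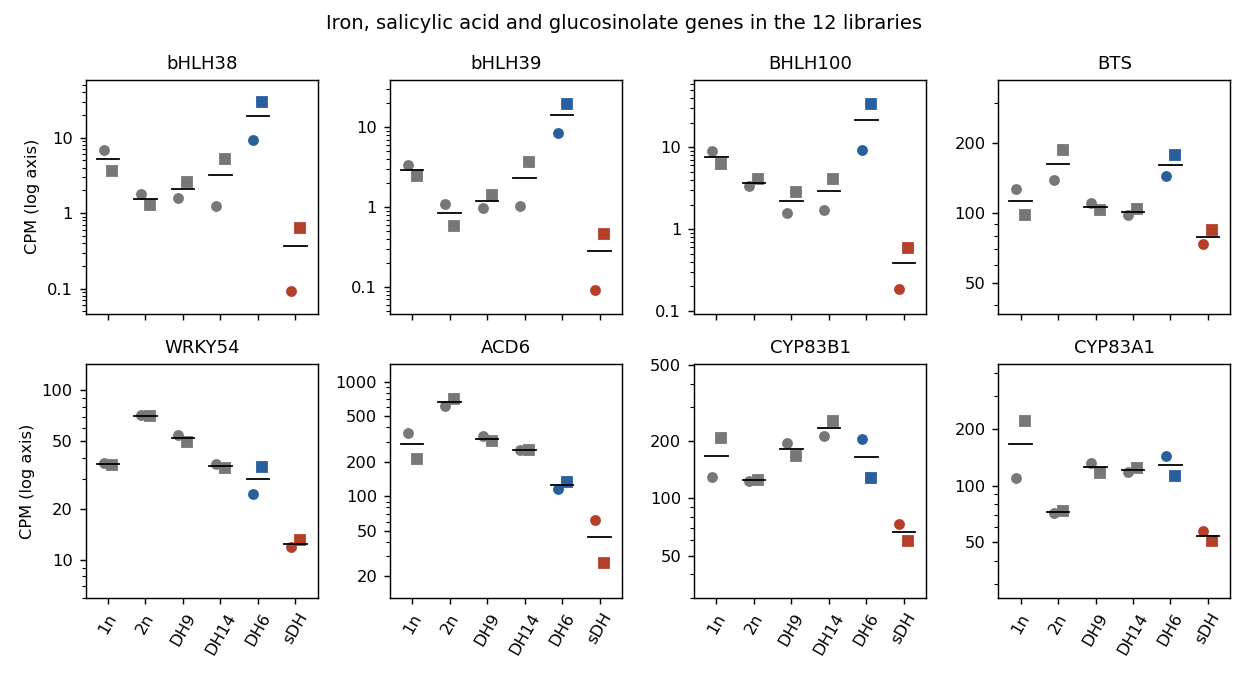
Levels (CPM, log axis) of 8 genes lower in sDH than in DH6 in the 12 libraries, with circles for replicate 1 or II, squares for replicate 2 or III and bars for group means (n = 2). Both sDH libraries lie below the other 10 in all 8 panels, and both DH6 libraries lie above the other 10 for bHLH38, bHLH39 and BHLH100 only.

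Few genes of cell division and DNA methylation passed, at shares no higher than over all genes, of which 4533 of 19201 had an unadjusted p under 0.05. Of 36 genes of cell division and DNA replication TSO2, a subunit of ribonucleotide reductase, was lower (log2 change -0.73, edgeR adjusted p = 0.0103, or 0.0861 without DH6 III) and none higher, with a median log2 change of -0.11. At an unadjusted p under 0.05, 4 genes differed, and DESeq2 called 1. Of 36 genes of the DNA methylation machinery none passed in edgeR or DESeq2, 7 had an unadjusted p under 0.05, and the median log2 change was 0.07. MET1, which maintains CG methylation, stood at 69.2 and 82.3 CPM in DH6 and at 66.5 and 60.1 CPM in sDH (log2 change -0.26 with SE 0.115, edgeR adjusted p = 0.202). CMT2, of non-CG methylation in heterochromatin, read 42.8 and 43.4 against 61.4 and 57 CPM (log2 change 0.46 with SE 0.176, edgeR adjusted p = 0.141). Its libraries did not overlap between groups, and those of MET1 were separate as well, but neither gene passed.

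Members of this list ranged from -0.39 to 1.03 in log2 change. CMT3 was at -0.10 and DRM2, of RNA-directed methylation, at 0.44, and DDM1 (CHR1), a remodeller needed for TE silencing, was at -0.00 (SE 0.118, edgeR adjusted p = 0.998). The demethylase ROS1 (DML1) changed by 0.38 (edgeR adjusted p = 0.108, but 0.041 without sDH III). The centromeric histone HTR12 (CENH3) read 4.49 and 9.24 CPM in DH6 and 5.83 and 4.8 CPM in sDH, with overlapping libraries (edgeR adjusted p = 0.506). Of 8 tested DNA damage genes and 8 growth-regulating factors none passed in edgeR or DESeq2, and 1 and 0 had an unadjusted p under 0.05. Among 3 tested loci known to be silenced by DNA methylation none passed in edgeR or DESeq2, and 1 had an unadjusted p under 0.05. The floral repressor FLC was at 0.584 and 0.758 against 0.56 and 0.585 CPM (edgeR adjusted p = 0.86).

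Smaller lists held 1 to 3 calls each, where 4.45% of all tested genes were higher and 2.88% lower. Shares differed, from 1 of 22 tested flavonoid genes to 3 of 11 phosphate starvation genes. Among flowering genes RAV2 (TEM2), a floral repressor, was higher, at 28.3 and 28.9 CPM in DH6 and 74.8 and 88.2 CPM in sDH (log2 change 1.51, edgeR adjusted p = 0.00317), with DH6 below all other libraries. In the cold and abscisic acid list ABF3, an abscisic acid transcription factor (log2 change 1.05), and HAB1 were higher and GolS3 lower. Phosphate starvation genes SQD2, PHT1;4 and PLDP2 had log2 changes of -0.51, -1.08 and -1.54 and were lower, of 11 tested. Heat-shock factors HSFA7A and HSFB2A were higher and HSFA1D lower, of 12 tested, and of 15 heat shock genes BAG6 was the only further call and was lower. PIL6 (PIF5) and PAR1 of the shade list, PAL2 of flavonoid synthesis and XTH25 were higher, whereas KAT1, a guard cell potassium channel, GSR 1, a glutamine synthetase, XTH31 and SAUR22 were lower. Of the genes in this paragraph RAV2, ABF3, PIL6, PAL2 and KAT1 kept their calls without each library, and the others lost theirs in at least 1 fit, with highest adjusted p of 0.0547 to 0.183. Medians of these lists lay between -0.61 for the SAUR genes and 0.19 for the heat-shock factors.

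**Figure D5:**
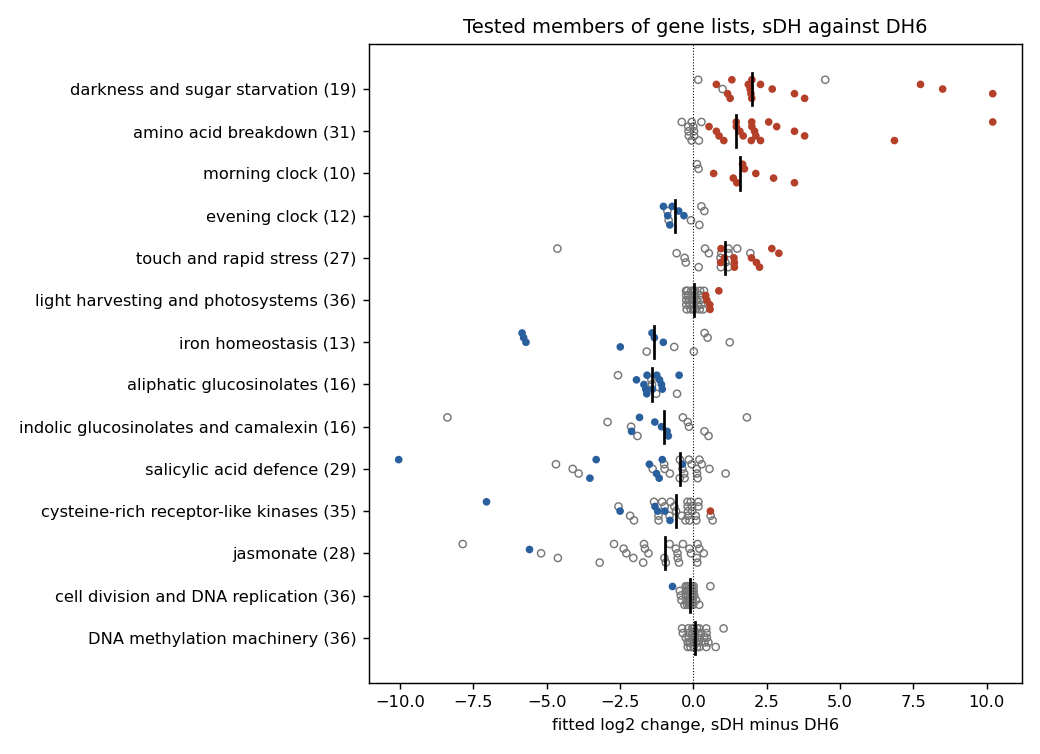
Fitted log2 change (sDH minus DH6) of each tested member of 14 gene lists, with the number tested in parentheses. Filled points passed the test (red higher, blue lower in sDH), open points did not, black bars are list medians and the dotted line is the median of all tested genes at -0.01; the starvation list lies to the right with a median of 1.99 and the aliphatic glucosinolates to the left with -1.40.

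The other groups show in which of the pair a level was unusual. Of the 855 genes higher in sDH, 427 (49.9%) had both sDH libraries above all 10 others, an order held by 9.74% of tested genes, and 266 (31.1%) had both DH6 libraries below all others, against 5.31%. Of the 553 lower genes 299 (54.1%) had sDH below all others, against 7.62%, and 93 (16.8%) had DH6 above all others, against 5.03%. Both groups stood at opposite ends for 57 of the higher and 11 of the lower genes. The calls themselves use the levels of sDH and DH6, so these shares are descriptions. Chromosomes were alike: medians of the 5 nuclear chromosomes lay between -0.0143 and -0.00745, and at most 3 tested neighbours in a row were called in 1 direction.

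Among TEs, the mobile or once mobile repeats of the genome, 92 of 1372 tested (6.71%) differed, 62 higher in sDH (4.52%) and 30 lower (2.19%). Scaled by TE counts in place of gene counts the split was 50 higher and 39 lower, since the median log2 change of TEs was 0.10 on the gene scale and 0.00 on their own. Without DH6 II, DH6 III, sDH II or sDH III, 25, 35, 63 and 42 TEs passed, and 21 calls held in all 4 fits, 15 of them higher. TE families and positions were not used here, and reads of a TE cannot be told from those of a gene that overlaps it. The called TE AT2TE37325 had 2245, 1549, 944 and 695 counts in DH6 II, DH6 III, sDH II and sDH III. The gene SUR1 had 2240, 1548, 932 and 681 in the same order. How many TE calls follow reads of a gene in this way was not tested. AT3TE63500 had 2 counts in DH6 and 250 in sDH, a ratio of 141 at equal depth (95% interval 38.5 to 1168). AT2TE35695 stood at 0.494 and 0.0948 CPM in DH6 and at 10.8 and 15.4 CPM in sDH (log2 change 5.42 with SE 0.667, edgeR adjusted p = 5.14e-05). AT2TE09335 read 0.674 and 0.19 against 6.16 and 5.91 CPM (log2 change 3.77 with SE 0.443, edgeR adjusted p = 3.23e-05). In all 3 sDH lay above the other 10 libraries. AT2TE21295 and AT4TE14145 had 41 and 17 counts, and 18 and 31 counts, in DH6 and none in any other library, at least 17- and 14.6-fold. These 2 entered the test only through DH6, and AT3TE63500 only through sDH, so no p is given. Of 26673 TEs silent in 1n, 2n, DH9 and DH14, the DH6 libraries at equal depth had counts at 4.79 and 6.93% and those of sDH at 1.38 and 0.746%. A fit without TEs silent in those groups called 80 of 1369, 58 higher and 22 lower in sDH. The part of low counts in the remaining TEs was not tested. AT3TE45385 had 10 and 13 counts in sDH and none in DH6 (edgeR adjusted p = 0.0018, at most 0.0296 without any 1 library), with 4.99 and 5.08 CPM in DH9. Next among TEs with a mean of at least 20 counts in the higher group was AT4TE34695, with a log2 change of 3.69. AT4TE34700 followed, with 1.17 and 1.05 CPM in sDH and 0.0449 and 0.237 CPM in DH6. AT4TE34700 had 1 and 5 counts in DH6 and entered the test only through sDH, so no p is given for it. AT2TE24525 had 49 counts in DH6 and 2 in sDH (ratio 21.8, 95% interval 5.71 to 185) and failed in each fit without 1 library (0.0701 to 0.147). The others were AT3TE43945 and AT3TE43830, with log2 changes of -3.57 and -3.51, both of which stood highest in DH6 II and failed without it (edgeR adjusted p = 0.419 and 0.331).

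The longest run of TE calls, picked out after the values were seen, was of 5 tested TEs next to each other in number on chromosome 5, all lower in sDH. AT5TE46165 stood at 29.2 and 22.3 CPM in DH6 and at 4.94 and 6.55 CPM in sDH (log2 change -2.17 with SE 0.189, edgeR adjusted p = 1.72e-06), with 3.52 to 17.7 CPM in the other groups. AT5TE46155, AT5TE46160 and AT5TE46175 had log2 changes of -1.44, -2.96 and -1.72 and kept their calls without each library, as AT5TE46165 did. AT5TE46150 had a log2 change of -1.86 but lost its call without DH6 II (0.183) and without sDH II (0.132). Both DH6 libraries were above the 10 others for 3 of the 5 and overlapped DH9 for AT5TE46150 and AT5TE46175. DH9 came next for AT5TE46165, at 17.5 and 17.7 CPM, and sDH lay within the range of 1n, 2n and DH14 for that TE. Counts of such neighbours may share reads, so the 5 are not independent.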

How the data were processed

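RNA was poly(A)-selected and sequenced as 150 bp read pairs, per the labels' protocols. The submitters' processing notes name HISAT2, Subread, DESeq2 and the build TAIR10, without saying which step each served. The deposited values are whole-number counts of 27416 genes and 31189 TEs in 10 tables. Tool versions, the annotation, strand and treatment of multiply mapped reads: not given in the sources used here. Tables were joined by identifier, and 1 repeated 1n column was not used. The names II and III are those of the columns, whereas the labels number these replicates 1 and 2. Columns named WT were taken as 2n, the only group left for them.

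In R 4.3.3, features passing filterByExpr (minimum count 10, minimum total 15) were fitted in edgeR 4.0.16 (TMM, quasi-likelihood) over all 12 libraries with a mean per group, and the contrast sDH minus DH6 was adjusted by Benjamini-Hochberg over all tested features. TEs took the gene library sizes. CPM use TMM-scaled totals. They are not per length, so genes are not ranked by level. One count is 0.0449 to 0.0585 CPM in the 4 libraries. Intervals and floors cover counting error only. Gene symbols came from a reference table of TAIR10.1. The fit was checked on simulated counts.

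The comparison, members and gene lists were chosen with earlier results of these data known. Genes were named by a rule, not all of them with values: the 12 highest and 12 lowest log2 changes among called nuclear genes that have a symbol, at least 20 counts on average in the higher group and no overlap, up to 4 genes with the smallest p per list with 3 calls, the 5 highest and 5 lowest called TEs with the same mean count, and 11 genes read whatever their values. Further list members were picked after their values were seen. Alternatives tried were DESeq2 1.42.0, other scalings and filters, only the 4 libraries, a replicate block, and leaving out each library, where the lone library left is taken to vary like the other groups.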

Additional observations from a re-analysis of the deposited data

How the results depend on the processing

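The gene count of 1408 was within 1.5 times under RLE factors, library totals, no filter and DESeq2. It was 2177 with the 4 libraries alone and 2477 with a replicate block added in these 4. TEs numbered 92, 121 with the 4 libraries and 35 with the block added, and list members with a call 132, 192 and 221. The numbers II and III were not taken as pairs. Deviations of library II from the group means did not correlate between groups (r = -0.000495 across genes). Whether some genes share an effect by number was not tested. Leaving out 1 library gave 363 to 666 genes, 25 to 63 TEs, 60 to 79 list members and 40 to 48 of the 80 named genes with a call. DESeq2 kept 77 of the 80. Allowing 1 count in the silent group gave 10 genes in sDH alone, 7 in DH6 alone and 3 TEs (from 1) in sDH alone; asking for 20 counts gave 2 genes in DH6 alone and 0 TEs either way. Signs turned for 3 genes that did not pass in any of these fits: leaving out 1 library gave HTR12 log2 changes of -0.79 to 0.25, CMT3 -0.27 to 0.045 and CHR1 -0.085 to 0.095, and CHR1 was at 0.0058 without the filter and 0.0020 with the replicate block. With 2 libraries a group, small changes of low genes were not detectable at this depth.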
